A study of Homo sapiens with 6 samples.

Results

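A set of 10 genes that respond to the ERK pathway and, in most cases, restrain it were followed after depletion of YAP and TAZ. They were chosen by name from the table of 23459 genes: the dual-specificity phosphatase genes DUSP1, DUSP4, DUSP5 and DUSP6, the Sprouty genes SPRY2 and SPRY4, the Spred genes SPRED1 and SPRED2, and the ERK output genes PHLDA1 and ETV5. The choice was made with earlier results of these data known, so shares of all genes given beside them are no test of the set. All 10 were in the table, and all 10 passed the filter on low counts. Of the 10 log2 fold changes, 8 were below 0 and 2 above, where 50.1% of all genes tested were below 0. PHLDA1 fell to 42.1% of its control level and was the only 1 of the 10 to pass an adjusted p of 0.05 when all libraries were compared without regard to their replicate number. When libraries of the same number were compared with each other, DUSP5 and ETV5 also fell and DUSP1 rose. DUSP4, DUSP6 and the 4 Sprouty and Spred genes did not pass. Of all genes tested, 1.96% passed in the first comparison and 10.1% in the second. DUSP1 and DUSP5 passed in the second comparison only, and in no other fit.

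The ERK pathway carries the signal of growth factor receptors through RAS, RAF and MEK to the kinase ERK, which enters the nucleus and switches on genes. Several of these genes encode brakes on the pathway itself: dual-specificity phosphatases remove the activating phosphates from ERK and related kinases, while Sprouty and Spred proteins act further up, between the receptor and RAF. In mammary epithelial cells that depend on EGF for growth, the mRNA of such feedback genes is commonly read as a gauge of pathway output.

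The cells were MCF10A, an untransformed human mammary epithelial line, grown with 20 ng/ml EGF, 5% horse serum, 10 µg/ml insulin, hydrocortisone and cholera toxin. All 6 descriptions carry the letters WT, while the separate genotype field names the siRNA group. The cells had been transfected with 20 nM siRNA, which was non-targeting in the siCtrl group and directed at YAP and TAZ in the siYAP/TAZ group, with 3 libraries each. EGF was thus present in both groups, and the time between transfection and harvest is not given in the sources used here. Groups were taken from the description, the label that matches the table's columns. For 2 libraries, described as siCtrl replicate 2 and siYAP/TAZ replicate 2, title and genotype name the opposite group. The series' design text concerns an activation of JUN and not these siRNAs, so the treatments rest on the sample labels.

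The libraries held 3175149 to 4317286 counts. YAP1 was at 57.5% and WWTR1, the gene for TAZ, at 61.8% of the control level, and in both genes each depleted library lay below each control (edgeR quasi-likelihood test, adjusted p = 0.0138 and 0.0311). Both disputed libraries carried the YAP1 and WWTR1 levels of the group in their description. With 1 library left out, the adjusted p reached 0.112 for YAP1 (without siYAP/TAZ replicate 3) and 0.176 for WWTR1 (without siYAP/TAZ replicate 3). The YAP1 call was also lost on omitting siCtrl replicate 3, as it was on omitting siYAP/TAZ replicate 2, and among these 6 fits WWTR1 passed only without siCtrl replicate 2. In bulk RNA, fewer cells of a type and less RNA per cell cannot be told apart. The siCtrl replicate 2 library stood apart from the other controls on the first principal component, at 7.15 against -42.6 and -34.9, with the siYAP/TAZ libraries at 9.77 to 33.7. The 8 basal epithelial markers summed to 1555 to 2663 CPM (CPM is the count scaled to library size with TMM, a trimmed-mean normalisation) over all libraries. No fibroblast or leukocyte marker exceeded 12 counts in a library. The 3 endothelial markers summed to 2.01 to 3.39 CPM in siCtrl and 4.76 to 11.2 CPM in siYAP/TAZ, of which PECAM1 averaged 1.32 and 5.885 CPM, while VWF was at 102% and CDH5 at 91.7% of control. None of the 3 was at 0 throughout, and their part in the results was not tested.

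PHLDA1 and ETV5 are outputs rather than brakes. PHLDA1 (Entrez 22822; GRCh37 chromosome 12, 76419227 to 76425556, minus strand) encodes a pleckstrin homology-like protein whose mRNA tracks ERK activity. It had 146, 87.0 and 125 CPM in siCtrl replicates 1, 2 and 3, and 49.2, 45.95 and 55.8 CPM in siYAP/TAZ. All 3 siYAP/TAZ libraries lay below the lowest control, and the lowest control was replicate 2. The means were 119.5 ± 30.01 and 50.3 ± 5.00 CPM (SD, n = 3). The log2 fold change was -1.25 (SE 0.20, 95% interval -1.69 to -0.81), and the adjusted p (Benjamini-Hochberg, over all genes tested) was 0.0168 in edgeR and 0.000921 with the replicate number as a block, a term that compares libraries of 1 number with each other. Of the 12510 genes tested, 1.96% passed in either direction without the block and 10.1% with it. The call was lost on omitting control replicate 3 (0.101) and on omitting depleted replicate 2 (0.0752) or 3 (0.104), although its log2 fold change stayed between -1.43 and -1.08 in every fit that left out 1 library.

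ETV5 (Entrez 2119; GRCh37 chromosome 3, 185764103 to 185828107, minus strand) encodes an ETS-family transcription factor of the PEA3 group. Its libraries read 35.3, 25.0 and 36.4 CPM in the control libraries against 19.7, 15.9 and 22.03 CPM after depletion. The groups did not overlap, and siCtrl replicate 2 was again the lowest control. With means of 32.3 ± 6.31 and 19.2 ± 3.11 CPM (SD, n = 3), the log2 fold change was -0.74 (SE 0.21) and the adjusted p 0.110 by edgeR. It passed with the block (0.0227) and without siCtrl replicate 2 (-0.89, 0.0146), a setting in which 12.3% of all genes passed. The annotated span overlaps that of DGKG on the same strand, which had 3 to 16 counts, so the assignment of a few reads is uncertain.

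**Figure D1:**
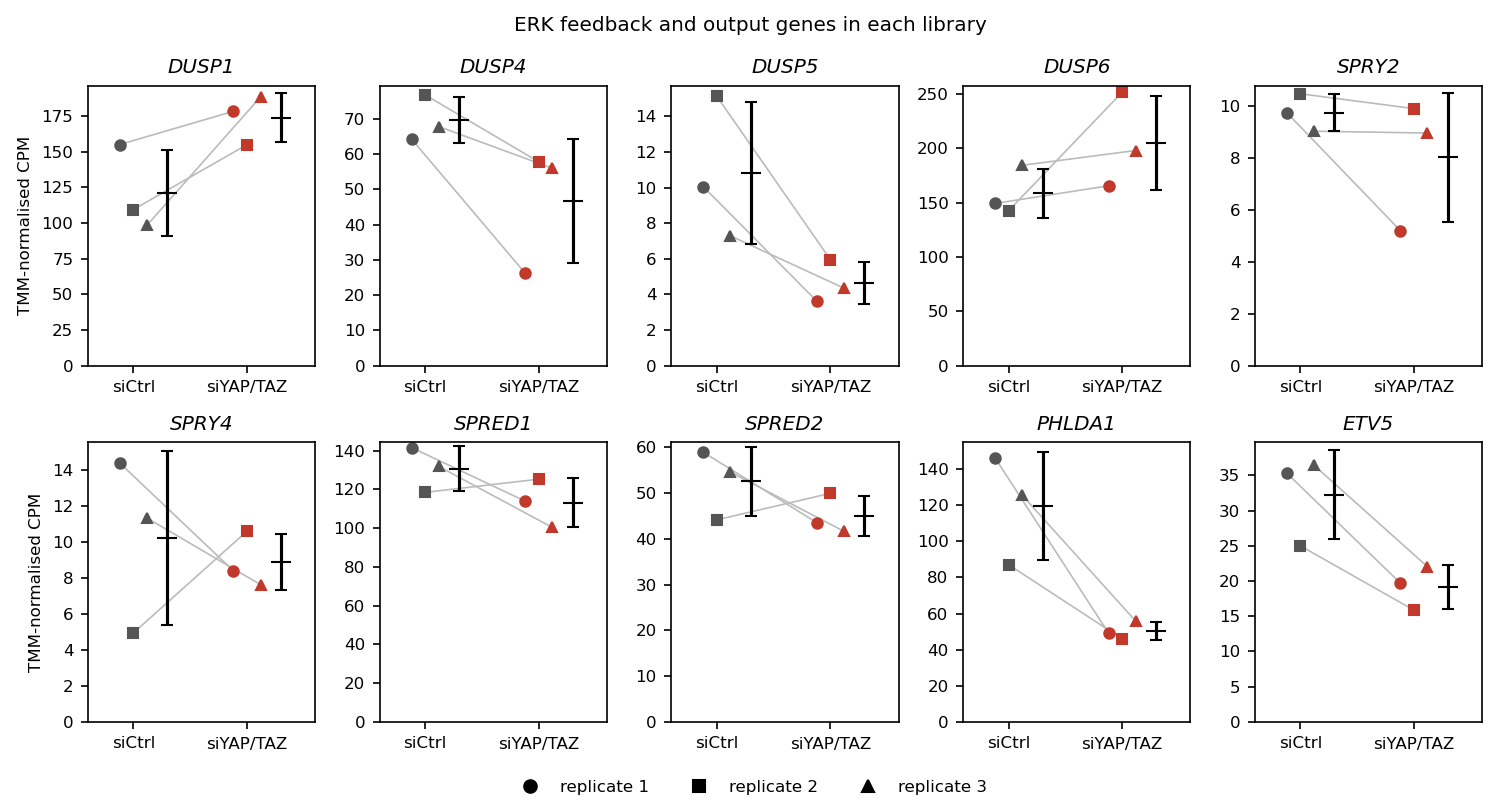
TMM-normalised CPM of the 10 genes in each library, with circles, squares and triangles for replicates 1, 2 and 3, grey lines joining libraries of the same number, and black bars for mean and SD of 3 libraries. The siYAP/TAZ points lie below all siCtrl points for PHLDA1, ETV5, DUSP5 and DUSP4 and overlap with them for the other 6 genes.

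Among the 10 genes, PHLDA1 alone passed with all libraries and DUSP1 alone rose with the block. Their upstream sequences are shown as RefSeq gives them for GRCh38.p14. Each holds 250 bases up to the annotated start, read 5′ to 3′ on the minus strand. The windows are chr12:76031777-76032026 for PHLDA1 and chr5:172771196-172771445 for DUSP1. Capitals mark matches to any of 4 motifs searched on both strands, and the only match is a cyclic AMP response element.
PHLDA1: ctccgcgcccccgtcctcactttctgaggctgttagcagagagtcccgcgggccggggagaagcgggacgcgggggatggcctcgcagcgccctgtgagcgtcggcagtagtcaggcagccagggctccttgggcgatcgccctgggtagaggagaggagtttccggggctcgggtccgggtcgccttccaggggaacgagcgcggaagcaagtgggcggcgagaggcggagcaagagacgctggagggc
DUSP1: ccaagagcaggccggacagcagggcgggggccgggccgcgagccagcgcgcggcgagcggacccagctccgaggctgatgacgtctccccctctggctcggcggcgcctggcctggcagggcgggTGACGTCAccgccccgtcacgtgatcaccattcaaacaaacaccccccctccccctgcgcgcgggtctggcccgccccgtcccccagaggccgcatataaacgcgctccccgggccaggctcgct
The motifs were GGAATG (TEAD), TGANTCA (AP-1), TGACGTCA (the cyclic AMP response element) and CCGGAAG (ETS), of which the first and the last share the letters GGAA. Among the promoters of 10034 tested genes, 9.17%, 3.73%, 2.90% and 16.2% held a match in the same window. Promoters of 7 of the 10 genes were matched, and 1 of the 7, DUSP1, held a match, which begins 125 bases before the start. For PHLDA1 these letters are not in this window, which says nothing about sites elsewhere.

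The 4 phosphatase genes differed in the sign of their log2 fold change, below 0 for DUSP4 and DUSP5 and above 0 for DUSP1 and DUSP6. DUSP5 (Entrez 1847; GRCh37 chromosome 10, 112257665 to 112271291, plus strand) and DUSP4 encode nuclear phosphatases, DUSP5 with ERK as its main substrate. DUSP1 encodes a nuclear phosphatase that also acts on p38 and JNK, whereas DUSP6 encodes a cytoplasmic phosphatase with a preference for ERK.

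DUSP5 had few reads, with 35, 49 and 29 counts in the control libraries against 16, 18 and 16 after depletion. These correspond to 10.1, 15.1 and 7.29 CPM against 3.63, 5.95 and 4.35 CPM. Every siYAP/TAZ library was below every control, with siCtrl replicate 2 the highest of all. The log2 fold change was -1.23 (SE 0.36), about as large as that of PHLDA1 but with an edgeR adjusted p of 0.115, and 0.0294 with the block. The pseudogene DUSP5P1 had 13 to 27 counts in the same libraries, so the split of reads between these similar sequences is uncertain.

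DUSP4 (Entrez 1846) had 64.3, 76.8 and 67.9 CPM in the control libraries against 26.3, 57.9 and 56.0 CPM after depletion. The groups did not overlap, although siYAP/TAZ replicate 1 was far below the other 2 depleted libraries. Its log2 fold change was -0.59 (SE 0.26), with adjusted p-values of 0.287 by edgeR and 0.0570 with the block, so it passed under neither.

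DUSP1 (Entrez 1843; GRCh37 chromosome 5, 172195099 to 172198198, minus strand) gave 155.1, 109.5 and 98.5 CPM in the control libraries against 178, 155.0 and 188 CPM after depletion. The groups met at their edges, in siCtrl replicate 1 and siYAP/TAZ replicate 2. The means were 121 ± 29.99 and 174 ± 17.2 CPM (SD, n = 3), and the log2 fold change was 0.52 (SE 0.18), with an edgeR adjusted p of 0.177. It rose with the block (0.54, adjusted p of 0.0390). Within replicate numbers 1, 2 and 3 it was higher by 0.20, 0.50 and 0.93 on the log2 scale.

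DUSP6 (Entrez 1848) had 149, 143 and 184 CPM in the control libraries against 165.5, 252 and 198 CPM after depletion. The siCtrl replicate 3 library lay above siYAP/TAZ replicate 1, and siYAP/TAZ replicate 2 was the highest of the 6. The log2 fold change was 0.37 (SE 0.18), with adjusted p-values of 0.319 by edgeR and 0.160 with the block. Its difference within replicate number 2 was 0.82 on the log2 scale, against 0.15 and 0.10 within numbers 1 and 3.

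**Figure D2:**
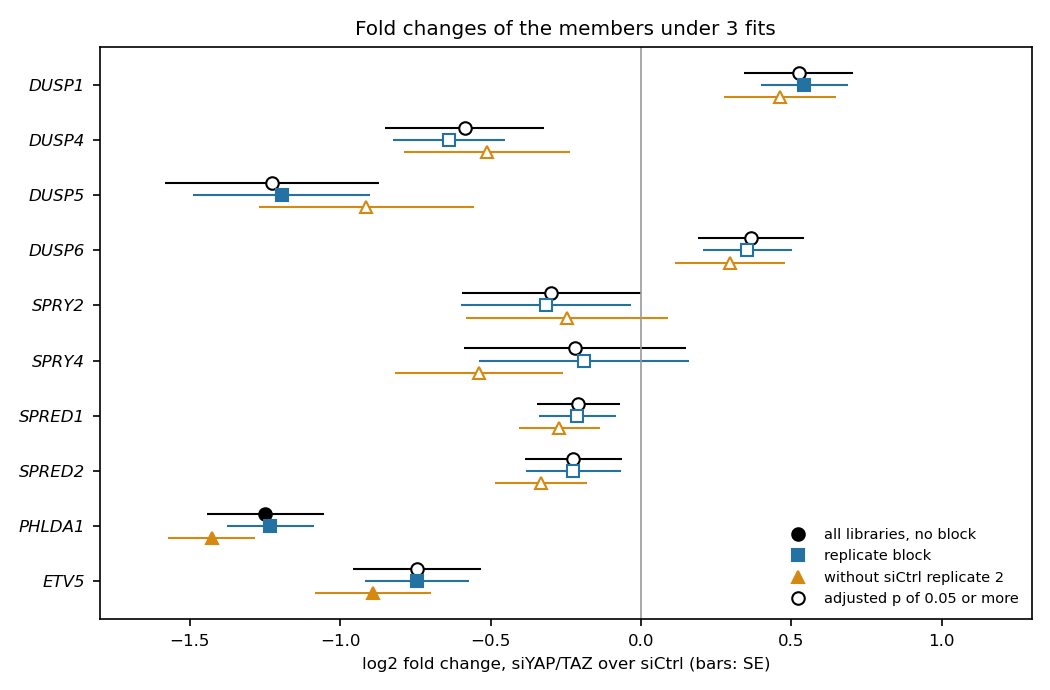
Log2 fold change (siYAP/TAZ over siCtrl) with SE of each gene in the fit of all libraries, with the replicate block and without siCtrl replicate 2, where filled symbols pass an adjusted p of 0.05. PHLDA1 is filled in all 3 fits, ETV5 in 2 of them, and DUSP5 and DUSP1 with the block only.

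None of the 4 Sprouty and Spred genes passed in any alternative that tested it (15 for SPRED1 and SPRED2, and 14 for SPRY2 and SPRY4, which a minimum mean of 50 counts left out), and each had a log2 fold change between -0.30 and -0.21 with all libraries. SPRY2 and SPRY4 encode Sprouty proteins, inhibitors of receptor signalling to RAS and RAF. SPRY2 (Entrez 10253) had 34, 34 and 36 counts in the control libraries against 23, 30 and 33 after depletion. Its CPM values were 9.05 to 10.5 and 5.21 to 9.92, which overlap. The log2 fold change of -0.30 (SE 0.30) had a 95% interval of -0.97 to 0.37.

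SPRY4 (Entrez 81848) had 50, 16 and 45 counts in the control libraries against 37, 32 and 28 after depletion. The low control, replicate 2, was below all siYAP/TAZ libraries, and the other 2 controls were above all of them. The log2 fold change was -0.22 (SE 0.37, 95% interval -1.05 to 0.61) with all libraries, -0.54 without siCtrl replicate 2 (edgeR adjusted p = 0.241) and 0.095 without siCtrl replicate 1.

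SPRED1 and SPRED2 encode membrane-bound inhibitors that bring neurofibromin, a RAS GTPase-activating protein, to RAS. SPRED1 (Entrez 161742) had 142, 118.5 and 132 CPM in the control libraries against 114, 125 and 100.4 CPM after depletion. SPRED2 (Entrez 200734) had 58.9, 44.1 and 54.5 CPM in the control libraries against 43.5, 49.9 and 41.6 CPM after depletion. In both genes siYAP/TAZ replicate 2 was above siCtrl replicate 2, while numbers 1 and 3 went the other way. The log2 fold changes were -0.21 (SE 0.14, 95% interval -0.52 to 0.10) and -0.23 (SE 0.16, 95% interval -0.59 to 0.14), with adjusted p-values of 0.467 and 0.506 by edgeR.

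Across the 10 genes, 8 had a log2 fold change below 0, with a median of -0.26, against 50.1% of all genes tested and a median of -0.0009. The 10 were chosen with earlier results of these data known, so this contrast and those that follow describe them and test nothing. Groups did not overlap for 4 genes, all lower, where 22.1% of all genes had groups that did not overlap, 11.1% lower and 11.0% higher. Within the 3 replicate numbers, 5 genes were lower each time, 2 were higher each time and 3 were mixed, where 46.1% of all genes went 1 way each time. With all libraries 1 of the 10 fell and 0 rose in edgeR, with 4 at an unadjusted p under 0.05 in either direction. Of all genes, 1.22% fell and 0.743% rose, and 17.7% were at an unadjusted p under 0.05. With the block 3 fell and 1 rose, where 5.44% of all genes fell and 4.66% rose. Without siCtrl replicate 2, PHLDA1 and ETV5 fell and 0 rose in edgeR, with 4 at an unadjusted p under 0.05. In that fit 6.22% of all genes fell and 6.08% rose, and 27.9% were at an unadjusted p under 0.05. Without both disputed libraries the same 2 genes fell, where 9.29% of all genes passed, 4.64% lower and 4.65% higher. DESeq2 called PHLDA1 alone, where it called 4.73% of all genes, 2.65% lower and 2.08% higher.

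**Figure D3:**
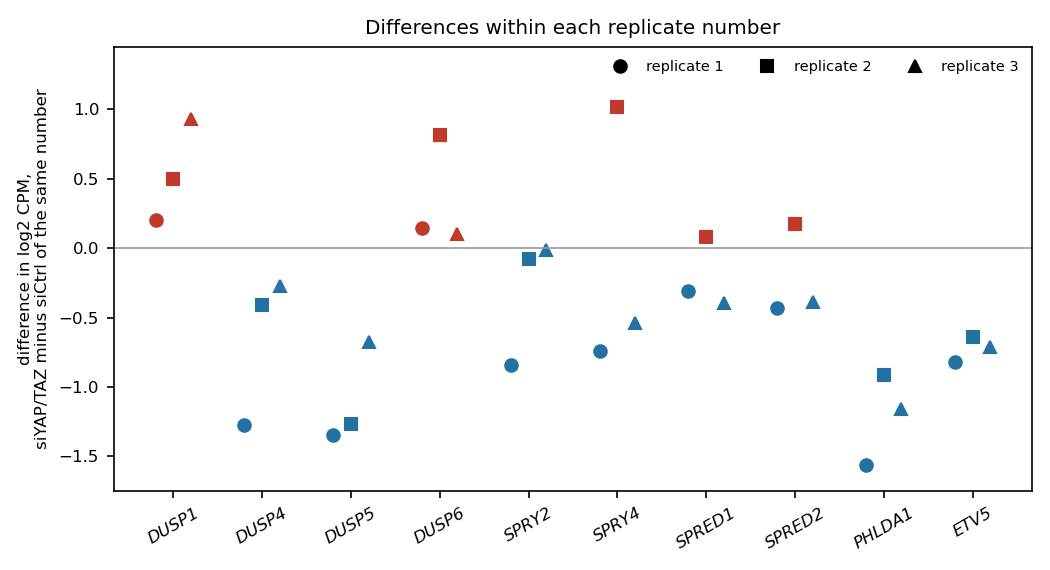
Difference in log2 CPM between the siYAP/TAZ and siCtrl libraries of the same number (circle, square and triangle for replicates 1, 2 and 3), blue below 0 and red above. PHLDA1, ETV5, DUSP5, DUSP4 and SPRY2 are below 0 in all 3, DUSP1 and DUSP6 above, and SPRY4, SPRED1 and SPRED2 change sign at replicate 2.

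The position of siCtrl replicate 2 differed from gene to gene. It was below both other controls for 6 of the 10 genes, above both for 3 and between them for 1, where 39.7% of all genes tested were below both and 39.2% above. The largest of these gaps from the mean of the other controls were -1.28 for SPRY4 and 0.78 for DUSP5 on the log2 scale, followed by -0.63 for PHLDA1 and -0.51 for ETV5. Leaving this library out moved PHLDA1 and ETV5 away from 0 and DUSP5 towards it, to a log2 fold change of -0.91.

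**Figure D4:**
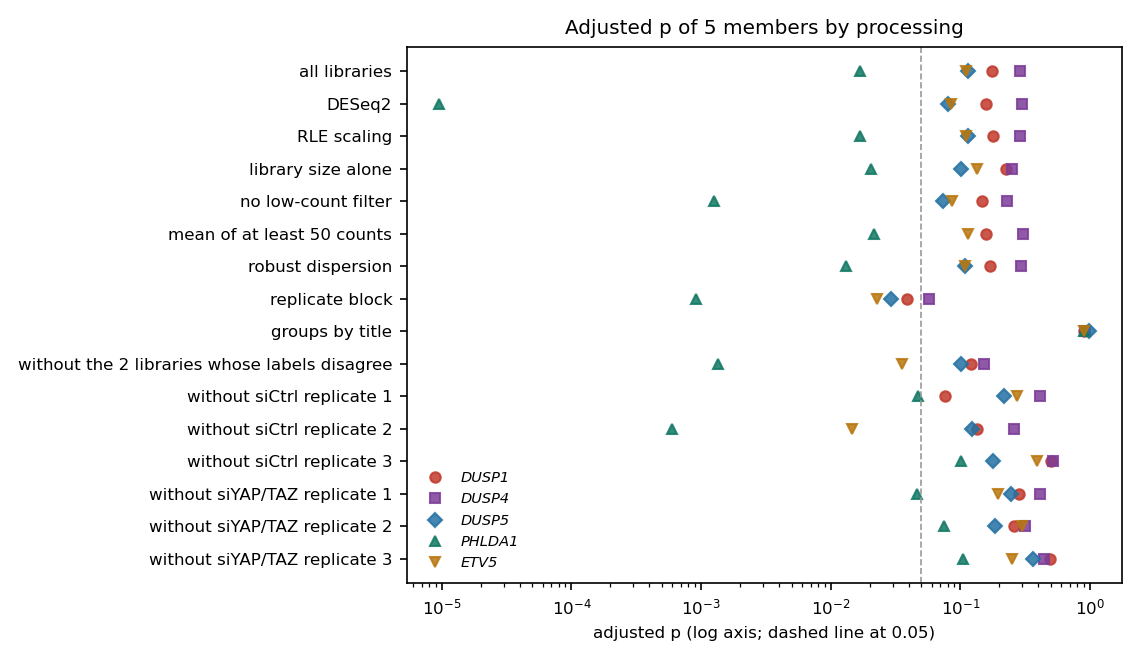
Adjusted p (log axis) of DUSP1, DUSP4, DUSP5, PHLDA1 and ETV5 with all libraries and under each of the 15 alternatives (14 for DUSP5, not tested at a mean of at least 50 counts), with the threshold of 0.05 dashed. PHLDA1 lies left of the line in 11 alternatives, ETV5 in 3, DUSP1 and DUSP5 in 1 each and DUSP4 in 0.

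The other genes of the pathway were taken from a list of 78, of which 68 passed the low-count filter. Of these, 3 were lower and 1 higher at an edgeR adjusted p of 0.05, and 11 were lower and 3 higher with the block. Among all genes tested, 1.22% were lower and 0.743% higher without the block, and 5.44% and 4.66% with it. The median log2 fold change was -0.12, against -0.0009 for all genes tested. This list too was chosen with earlier results of these data known, so the contrast is a description.

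Among 8 tested ligands, 2 fell. AREG, which encodes amphiregulin, had 1225, 669 and 1053 CPM in the control libraries against 278.5, 217 and 292 CPM after depletion (log2 fold change -1.90, SE 0.23, edgeR adjusted p = 0.00879). EPGN, which encodes epigen, fell from 144 ± 10.1 to 39.3 ± 10.6 CPM (-1.86, SE 0.19, 0.00342; SD, n = 3). With the block, EREG, FGF2 and TGFA, named after their values were seen, fell too, with log2 fold changes of -1.13, -0.77 and -0.66. The AREG call was lost on omitting replicate 3 of the controls (0.0573) or of the depleted libraries (0.0657).

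No receptor passed with all libraries. FGFR3, a fibroblast growth factor receptor gene, had 0, 16 and 0 counts in the control libraries against 27, 92 and 42 after depletion, with an edgeR adjusted p of 0.129 and 0.00324 with the block. Here siCtrl replicate 2 was the only control with a count. INSR, the insulin receptor gene, had a log2 fold change of 0.58 (adjusted p of 0.243), and EGFR, the receptor for the EGF in the medium and named after its values were seen, had -0.20 (0.419). Of the 18 tested genes of the cascade from adaptors to ERK, 0 passed by edgeR with or without the block. With all libraries none was at an unadjusted p under 0.05, where 17.7% of all genes tested were. PTPN11, a phosphatase that promotes RAS activation, and MAP2K1, which encodes MEK1, had the smallest p in this list, with log2 fold changes of -0.29 (adjusted p of 0.338) and -0.36 (0.382). PTPN11 overlaps RPL6 and MAP2K1 overlaps SNAPC5 on the opposite strand, so their counts are uncertain. Without siCtrl replicate 2, MAP2K1, PTPN11 and NRAS were lower and GAB1 and SOS1 higher at an unadjusted edgeR p of 0.00792 to 0.0342. In that fit 27.9% of all genes were under 0.05 unadjusted, and 0 cascade genes passed after adjustment. GAB1, NRAS and SOS1 were named after their values were seen.

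Of 17 other brakes tested, DUSP10 rose. It encodes a phosphatase that acts mainly on p38 and JNK, and it had 18, 11 and 25 counts in the control libraries against 88, 52 and 199 after depletion (log2 fold change 2.60, SE 0.48, edgeR adjusted p = 0.0304). The call was lost on omitting control replicate 1 (0.0923) or 3 (0.132), or depleted replicate 3 (0.0852), the last of which also lowered the log2 fold change to 1.89. Named after their values were seen, ERRFI1, which encodes an inhibitor of the EGF receptor kinase, was higher and PEA15, an ERK-binding protein gene, lower with the block (log2 fold changes of 1.36 and -0.73, adjusted p of 0.0139 and 0.0107). ERRFI1 had 42.8, 183 and 50.5 CPM in the control libraries against 135, 224 and 236 CPM after depletion, so its controls also split at replicate 2.

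Of 15 other outputs tested, EPHA2 fell. This ephrin receptor gene went from 41.2 ± 15.7 to 11.5 ± 4.02 CPM (SD, n = 3; log2 fold change -1.82, SE 0.33, edgeR adjusted p = 0.0294), and the call was lost on omitting control replicate 1 (0.0767) or 3 (0.119), or depleted replicate 2 (0.104) or 3 (0.153). With the block, FOSL1, ETV1, CCND1 and IER3, again named after their values were seen, fell as well, with log2 fold changes of -1.45, -0.85, -0.82 and -0.73. ETV1 belongs to the same PEA3 group as ETV5, and its difference within replicate numbers 1, 2 and 3 was -0.76, -0.75 and -0.98, beside -0.82, -0.64 and -0.71 for ETV5. The remaining PEA3 gene, ETV4, was at -0.40 (SE 0.38, adjusted p = 0.629).

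**Figure D5:**
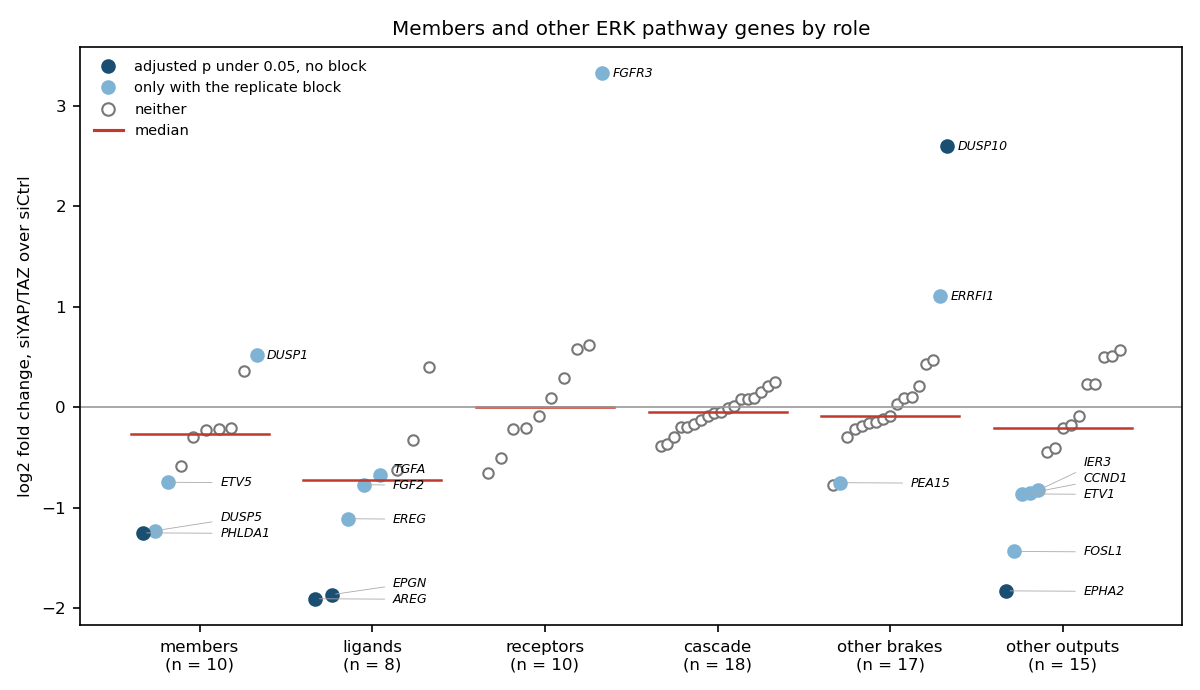
Log2 fold change (siYAP/TAZ over siCtrl) of the 10 genes (members) and of the other tested pathway genes by role, dark where the adjusted p is under 0.05 without the block, light blue where it is only with the block, with red lines for medians. The cascade genes lie between -0.39 and 0.25, while ligands have a median of -0.72.

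The 3 genes whose log2 CPM followed PHLDA1 most closely over the 6 libraries were ETS1, FILIP1 and AREG, with Pearson's r of 0.997, 0.995 and 0.995. All these points share 2 groups and 1 control that stands apart. ETS1 had 184, 105 and 180 counts in the control libraries against 87, 50 and 75 after depletion (log2 fold change -1.20, SE 0.21, edgeR adjusted p = 0.0265), and it did not pass without any 1 of the libraries other than siCtrl replicate 2, with adjusted p-values of 0.0623 to 0.139. FILIP1 had 71, 47 and 76 counts in the control libraries against 49, 33 and 43 after depletion (-0.68, SE 0.22, 0.159).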

How the data were processed

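Libraries of 3′ mRNA-Seq from MCF10A cells were analysed from 1 table of raw counts per Entrez gene, which the authors deposited without normalisation. The submitters' processing notes name hg19, cutadapt 4.2 and Bowtie2 2.3.5.1; the annotation and use of strand are not given in the sources used here. Reads of this kit come from transcript 3′ ends, so CPM was not divided by length. Of 23459 IDs, 23308 (99.7% of the counts) matched RefSeq symbols (GRCh38.p14). Gene coordinates are from GENCODE lifted to GRCh37.

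Differential expression was tested with edgeR 4.0.16 (R 4.3.3): filterByExpr, then TMM, a model of group alone, quasi-likelihood F test, Benjamini-Hochberg adjustment over 12510 genes, threshold 0.05. SEs derive from the log2 fold change and its F statistic. Alternatives included DESeq2 1.42.0. Same-numbered libraries deviated together from their group means (r across genes 0.42, 0.35 and 0.13 for numbers 1 to 3). Libraries of different number had r from -0.365 to 0.045. Deviations within a group cancel out, so these values of r depend on each other. The numbers, which come from the description field, were taken to pair the libraries, least clearly for number 3. Within groups, libraries differed beyond sampling noise (chi-square at least 5.37 times its degrees of freedom). For siCtrl replicate 2 this ratio was 17.4 and 14.1 with siCtrl replicates 1 and 3. With siYAP/TAZ replicates 1, 2 and 3 it was 16.6, 8.57 and 12.2. For siYAP/TAZ replicate 2 it was 14.2 and 6.56 with siYAP/TAZ replicates 1 and 3. The 2 libraries with disputed labels were thus near each other, and the cause was not tested. The study's methods call RNA-sequencing replicates biological, and the labels do not say whether these came from separate cultures. If the cultures were not separate, p-values measure only the spread between these libraries, which may be technical. A count of 0 allows up to 3 counts, for counting error only.

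The members and lists were chosen with earlier results of these data known. Named were all 10 members, YAP1 and WWTR1, the genes of each pathway role past the threshold (otherwise the 2 with the smallest p), and the 3 genes most like the member with the smallest p. The code was tested on simulated data.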

Additional observations from a re-analysis of the deposited data

How the results depend on the processing

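Of the 10 members, 8 kept their direction in every alternative that tested them (15, or 14 for DUSP5 and SPRY2). DUSP6 reversed to -0.21 (log2) and FGFR3 to -0.38 with groups by title, and SPRY4 reversed to 0.095 without siCtrl replicate 1 (range with 1 library left out -0.54 to 0.095). The number of members past the threshold was 1 with all libraries, 4 with the replicate block, 0 with groups by title (2 at an unadjusted p under 0.05 by edgeR), 2 without the 2 libraries whose labels disagree, and 0 to 2 with 1 library left out. The number of pathway list genes past it was 4 with all libraries, 8 with DESeq2, 9 without the low-count filter, 14 with the replicate block, 0 with groups by title (3 at an unadjusted p under 0.05), 15 without the 2 libraries whose labels disagree, and 1 to 16 with 1 library left out. Over all genes there were 245, then 592, 556, 1263, 0 (464 at an unadjusted p under 0.05) and 1183 in the same order, and 16 to 1579 with 1 library left out. The highest of each range came without siCtrl replicate 2. RLE scaling, library size alone, robust dispersion and a mean of at least 50 counts changed no call among the named genes that they tested. The replicate block moved DUSP1, DUSP5, ETV5 and FGFR3 past the threshold and changed no other call among the 22 named genes. The cause of these shifts was not tested. SPRY2, SPRY4 and DUSP5 had the fewest reads of the members, 16 to 50 counts per library.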

Other observations

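Immediate-early genes, which respond to growth factors within minutes, did not share 1 direction. EGR1 had 80.4, 72.5 and 52.5 CPM in the control libraries against 57.3, 123 and 112 CPM after depletion, a log2 difference of 0.51 (SE 0.27, edgeR adjusted p = 0.369). FOS had 49, 67 and 39 counts in the control libraries against 82, 90 and 66 after depletion (0.57, SE 0.31, 0.373), and JUNB was above every control in each of the 3 depleted libraries (0.50, SE 0.16, 0.160). None of the 3 passed with the block, with adjusted p-values of 0.263, 0.0994 and 0.0522, and JUNB passed without siCtrl replicate 2 (0.0203). EGR2, EGR3 and FOSB had at most 4 counts in any library and were not tested. IER2 was below every control in the 3 depleted libraries (-0.44, SE 0.18, 0.259, and 0.0911 with the block), and IER3, described above, fell with the block. These genes were named after their values were seen, and stand for no list.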
